A study of Mus musculus with 9 samples.

Results

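Glycolysis and hypoxia genes, here Slc2a1, Hk1, Hk2, Pfkp, Pfkfb3, Ldha, Pdk1, Car9, Vegfa and Ndrg1, were followed in laser-captured prostate lesions of the mouse. These 10 genes were taken by name from the 22180 gene symbols that had a probe set annotated with exactly 1 symbol, and where a symbol had several such probe sets the one with the brightest mean signal over 9 arrays stood for the gene. All 10 passed the filter on low signal that left 16635 genes for testing.

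The study placed 3 groups of 3 arrays each on the Affymetrix Mouse Gene 2.0 ST chip, all from male mice of mixed strain at 12 months of age. The first group was solid tumours, read as poorly differentiated adenocarcinoma, of mice that carried PbCre and T-3Mb-Erg/+, called T-3Mb-Erg tumours below. The second was HG-PIN, prostatic intraepithelial neoplasia of high grade that stays inside the glands, from the same 3 mice, called T-3Mb-Erg HG-PIN, and the third was HG-PIN of 3 mice with PbCre and without T-3Mb-Erg, called control HG-PIN. Both genotypes carried PbCre, a Cre recombinase driven by the probasin promoter in prostate epithelium, and the controls shared every engineered allele of the T-3Mb-Erg mice except T-3Mb-Erg itself. The control lesions were neoplastic, and no normal prostate was compared. T-3Mb-Erg is a Tmprss2-Erg fusion allele that lacks the genes lying between Tmprss2 and Erg, and it was present on 1 chromosome of each T-3Mb-Erg mouse.

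Cells take up glucose through GLUT proteins, break it down to pyruvate by glycolysis, and either oxidise the pyruvate in mitochondria or reduce it to lactate. When oxygen is scarce, the hypoxia-inducible factors HIF-1alpha and HIF-2alpha escape degradation and pair with ARNT. They bind short DNA elements that often contain the letters ACGTG. This raises transcription of glucose transporters, glycolytic enzymes, pyruvate dehydrogenase kinase, carbonic anhydrase 9 and VEGF.

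The 300 bases around annotated transcription starts (250 before to 50 after) were read for these letters on either strand, because the element links these genes to the hypoxia-inducible factors. A RefSeq window on build GRCm38.p6 was at hand for 9 of the 10 genes, and Ndrg1 had none. At least 1 match lay in a window of 7 of these 9 genes (Slc2a1, Hk1, Hk2, Pfkfb3, Ldha, Car9 and Vegfa), against 21.8% of all 27025 genes with a window. Counted by window, 8 of their 14 windows held a match, against 19.6% of all 32851 windows. Hk1 and Vegfa had 0 matches at their upstream start and matched only at a downstream start. Vegfa, the gene of the 10 whose signal varied most, is not shown. Windows of 4 genes are shown, 3 whose signal varied widely between lesions (Slc2a1, Hk2, Pfkfb3) and Ldha, which held the most matches. They are chr4:119108495-119108794 on the plus strand for Slc2a1, chr6:82774405-82774704 on the minus strand for Hk2, chr2:11553880-11554179 on the minus strand for the upstream start of Pfkfb3, and chr7:46845554-46845853 on the plus strand for Ldha. Each is written 5′ to 3′ on the gene's strand, and capitals mark ACGTG or its reverse complement CACGT, which overlap where they form CACGTG.
Slc2a1: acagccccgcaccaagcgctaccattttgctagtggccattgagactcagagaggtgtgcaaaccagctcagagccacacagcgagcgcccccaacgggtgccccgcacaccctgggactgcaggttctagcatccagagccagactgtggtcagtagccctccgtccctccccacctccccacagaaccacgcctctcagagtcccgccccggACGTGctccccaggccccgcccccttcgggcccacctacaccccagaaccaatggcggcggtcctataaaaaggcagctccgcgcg
Hk2: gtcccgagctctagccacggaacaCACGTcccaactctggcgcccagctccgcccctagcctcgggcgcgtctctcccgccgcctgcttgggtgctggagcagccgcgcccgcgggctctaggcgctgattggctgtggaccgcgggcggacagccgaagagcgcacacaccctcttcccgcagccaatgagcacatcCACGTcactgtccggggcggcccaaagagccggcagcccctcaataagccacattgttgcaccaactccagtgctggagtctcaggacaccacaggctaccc
Pfkfb3: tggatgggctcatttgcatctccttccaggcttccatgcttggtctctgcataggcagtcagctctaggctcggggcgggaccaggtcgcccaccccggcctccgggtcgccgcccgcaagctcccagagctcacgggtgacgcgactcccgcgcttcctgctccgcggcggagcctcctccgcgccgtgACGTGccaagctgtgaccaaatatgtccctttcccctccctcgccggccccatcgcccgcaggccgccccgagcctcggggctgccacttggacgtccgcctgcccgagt
Ldha: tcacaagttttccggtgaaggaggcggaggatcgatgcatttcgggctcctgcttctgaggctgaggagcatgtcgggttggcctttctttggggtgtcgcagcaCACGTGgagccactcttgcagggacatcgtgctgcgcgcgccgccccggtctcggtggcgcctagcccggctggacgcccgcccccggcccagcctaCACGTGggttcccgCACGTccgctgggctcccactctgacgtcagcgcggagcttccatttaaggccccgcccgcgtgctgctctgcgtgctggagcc
Slc2a1 had 1 match, Hk2 had 2 and the Pfkfb3 window had 1. Ldha had 5 matches at 3 places, and at 2 of those places both strands matched. A match is only a string of letters in these windows, not a bound site. Other forms of the element were not read, so a window without a match may still hold one.

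Signals below are log2 intensities, and a difference of 1 means a 2-fold difference in intensity. Probe sets differ in brightness for reasons of their own sequence, so a gene is compared only with itself across arrays. Signals of odorant and vomeronasal receptor genes, most of which prostate is not known to use, served as a gauge of background. The 95th percentile of 1394 such genes was 4.80. The mean over 9 arrays lay above that gauge for 7 of the 10 genes, against 27.9% of the genes tested, and lay below it for Hk1, Pfkp and Car9. The arrays differed in range, and the 95th percentile of all probe sets was 6.49, 6.15 and 6.65 in T-3Mb-Erg tumours 1, 2 and 3, 6.61, 6.36 and 6.26 in T-3Mb-Erg HG-PIN, beside 6.46, 6.16 and 6.49 in control HG-PIN. Number 1, 2 or 3 marks the same mouse in both T-3Mb-Erg groups, and the numbers of control mice only name them. Erg, the gene the fusion joins to Tmprss2, averaged 4.52 ± 0.32 in T-3Mb-Erg tumours, 3.96 ± 0.32 in T-3Mb-Erg HG-PIN, beside 3.88 ± 0.29 in control HG-PIN (SD, n = 3 each), below the gauge in each group, so its probe set gave no check of the genotype labels. Tmprss2 averaged 4.74 ± 0.35 in T-3Mb-Erg tumours, 6.50 ± 0.16 in T-3Mb-Erg HG-PIN, beside 5.97 ± 0.89 in control HG-PIN.

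**Figure D1:**
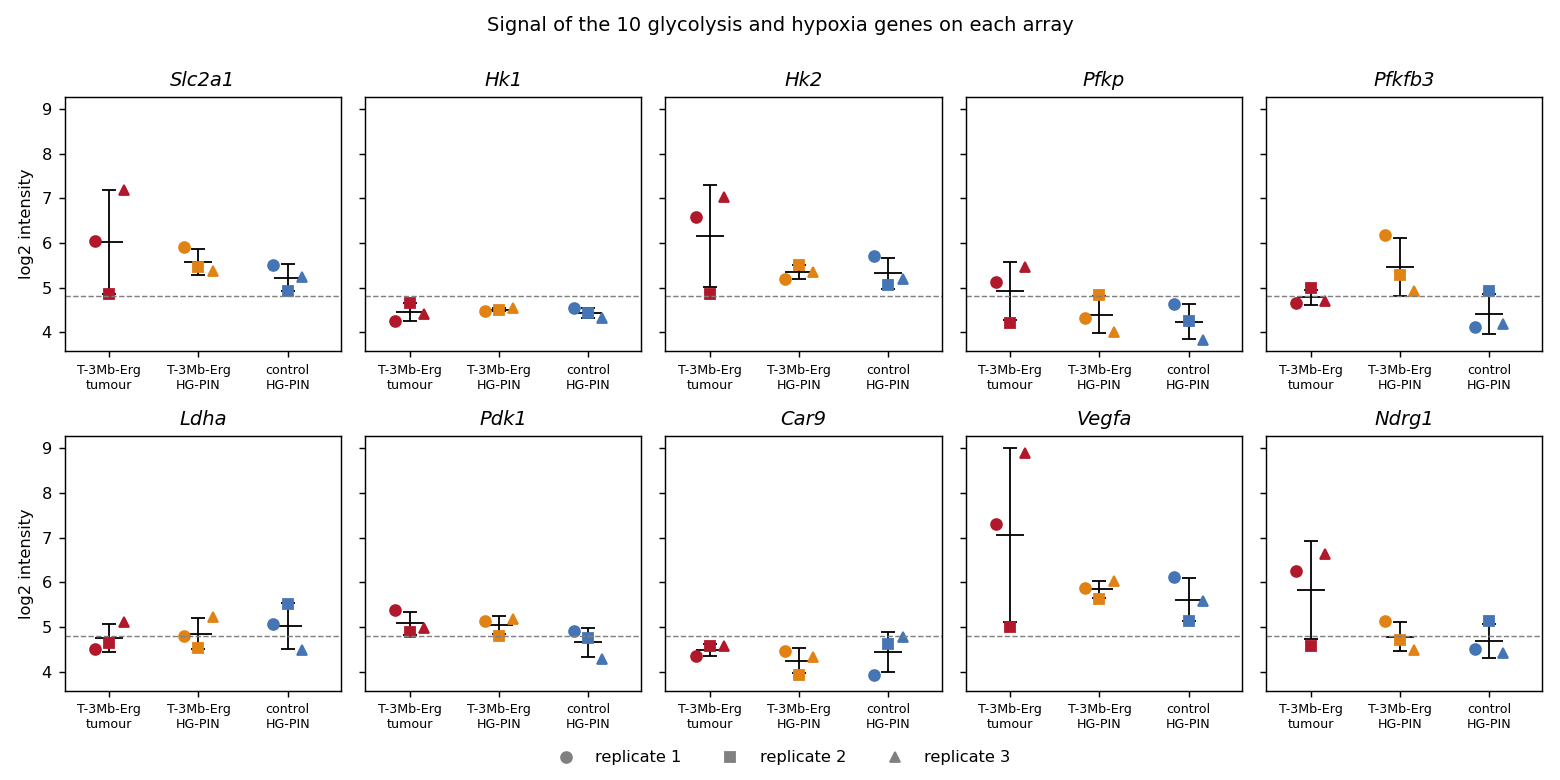
Signal of each of the 10 genes (log2 intensity) on each array in T-3Mb-Erg tumours, T-3Mb-Erg HG-PIN and control HG-PIN, with mean and SD as bars, symbols for replicates 1, 2 and 3, and a dashed line at the receptor background gauge of 4.80. Tumours 1 and 3 stood above tumour 2 for Slc2a1, Hk2, Pfkp, Vegfa and Ndrg1, while Hk1 and Car9 lay under the gauge on every array.

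Slc2a1 encodes GLUT1, the glucose transporter that most proliferating and oxygen-starved cells use. Its signal was 6.04, 4.87 and 7.19 in T-3Mb-Erg tumours 1, 2 and 3, against 5.91, 5.45 and 5.37 in T-3Mb-Erg HG-PIN, beside 5.51, 4.93 and 5.24 in control HG-PIN. Tumour 3 was the highest of the 9 arrays and tumour 2 the lowest, so the tumours spanned both HG-PIN groups. The difference was 0.46 (SE 0.49, adjusted p = 0.968) for tumours against T-3Mb-Erg HG-PIN, 0.81 (SE 0.48, adjusted p = 0.704) for tumours against control HG-PIN, and 0.35 (SE 0.48, adjusted p = 0.998) for T-3Mb-Erg HG-PIN against control HG-PIN. None passed the threshold of 0.05 after Benjamini-Hochberg adjustment over all genes in limma. Without tumour 3 the difference of tumours was -0.16 from T-3Mb-Erg HG-PIN and 0.19 from control HG-PIN, and without tumour 2 it was 1.05 and 1.40. A further, dim probe set of Slc2a1 had a mean of 2.64 over the 9 arrays and differed by 0.04 in that comparison.

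Hk1 and Hk2 encode hexokinases, which trap glucose inside the cell as glucose-6-phosphate. Hk1 is the widely expressed form and Hk2 the form induced in many tumours, and Hk2 is a textbook target of HIF-1alpha. Hk2 signal was 6.59, 4.87 and 7.04 in T-3Mb-Erg tumours, against 5.19, 5.51 and 5.35 in T-3Mb-Erg HG-PIN, beside 5.71, 5.06 and 5.19 in control HG-PIN. Tumours 1 and 3 exceeded every HG-PIN array, and tumour 2 lay below every one. Hk2 differed by 0.81 (SE 0.48, adjusted p = 0.807) between tumours and T-3Mb-Erg HG-PIN, by 0.84 (SE 0.47, adjusted p = 0.669) between tumours and control HG-PIN, and by 0.03 (SE 0.47, adjusted p = 0.999) between T-3Mb-Erg HG-PIN and control HG-PIN. Hk1 varied far less. It lay between 4.26 and 4.67 in tumours, against 4.48 to 4.55 in T-3Mb-Erg HG-PIN, beside 4.32 to 4.54 in control HG-PIN, under the background gauge on every array, and its SD over the 9 arrays was at percentile 0.673 of all genes tested. A steady Hk1 level can therefore not be read from it, and a further probe set annotated to both Hk1 and Hk1os was not used.

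Pfkp encodes the platelet form of phosphofructokinase, which commits sugar to glycolysis, and Pfkfb3 encodes the enzyme that makes fructose-2,6-bisphosphate, the strongest activator of phosphofructokinase. Pfkp was 5.12, 4.21 and 5.46 in T-3Mb-Erg tumours, against 4.32, 4.85 and 4.02 in T-3Mb-Erg HG-PIN, beside 4.63, 4.26 and 3.84 in control HG-PIN. Tumours 1 and 3 again exceeded every HG-PIN array, while tumour 2 and most HG-PIN arrays lay under the gauge. The Pfkp difference was 0.53 (SE 0.35, adjusted p = 0.844) for tumours against T-3Mb-Erg HG-PIN and 0.69 (SE 0.35, adjusted p = 0.594) for tumours against control HG-PIN.

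Pfkfb3 had another order. Its signal was 4.66, 4.98 and 4.71 in T-3Mb-Erg tumours, against 6.18, 5.29 and 4.92 in T-3Mb-Erg HG-PIN, beside 4.11, 4.92 and 4.19 in control HG-PIN. Every T-3Mb-Erg HG-PIN array lay above every control HG-PIN array, by a margin of 0.00014 between the closest arrays, which is no measurable gap. The difference between T-3Mb-Erg HG-PIN and control HG-PIN was 1.05 (SE 0.34, 95% interval 0.31 to 1.80), with an unadjusted limma p of 0.00941 that ranked 121 among the 16635 genes and an adjusted p of 0.998. Among the probe sets used, Pfkfb3 had the largest difference of the 10 genes in this comparison. The other 9 differed by -0.19 to 0.39. The further probe sets differed by 1.11 for Ndrg1, 0.43 for Car9, 0.06 for Pdk1 and 0.002 for Slc2a1. Pfkfb3 was lower in the tumour than in its own HG-PIN in each of the 3 mice, by margins of -1.51, -0.31 and -0.22. Its difference between tumours and T-3Mb-Erg HG-PIN was -0.68 (SE 0.34, adjusted p = 0.721). That difference was -0.33 without T-3Mb-Erg HG-PIN 1 and -0.94 without T-3Mb-Erg HG-PIN 3. Tumours differed from control HG-PIN by 0.37 (SE 0.34, adjusted p = 0.829).

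Ldha encodes the lactate dehydrogenase subunit that favours lactate formation, and Pdk1 encodes a kinase that shuts off pyruvate dehydrogenase and so keeps pyruvate from being oxidised. Ldha was 4.51, 4.63 and 5.11 in T-3Mb-Erg tumours, against 4.80, 4.53 and 5.23 in T-3Mb-Erg HG-PIN, beside 5.07, 5.51 and 4.49 in control HG-PIN. These ranges overlapped throughout, and the differences were -0.10 (SE 0.31, adjusted p = 0.995) for tumours against T-3Mb-Erg HG-PIN and -0.28 (SE 0.31, adjusted p = 0.869) for tumours against control HG-PIN. Pdk1 was 5.38, 4.89 and 4.97 in T-3Mb-Erg tumours, against 5.14, 4.80 and 5.18 in T-3Mb-Erg HG-PIN, beside 4.92, 4.76 and 4.29 in control HG-PIN. Pdk1 was lowest in control HG-PIN on average, and it differed by 0.42 (SE 0.26, adjusted p = 0.711) between tumours and control HG-PIN, by 0.39 (SE 0.26, adjusted p = 0.998) between T-3Mb-Erg HG-PIN and control HG-PIN, and by 0.04 (SE 0.26, adjusted p = 0.999) between tumours and T-3Mb-Erg HG-PIN. A further probe set of Pdk1 gave -0.31 for tumours against T-3Mb-Erg HG-PIN and -0.25 for tumours against control HG-PIN, so the direction was not shared by its probe sets.

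Car9 encodes carbonic anhydrase 9, a cell-surface enzyme that adjusts the pH around hypoxic cells and is widely used as a marker of hypoxia. Its signal was 4.34, 4.57 and 4.57 in T-3Mb-Erg tumours, against 4.47, 3.94 and 4.32 in T-3Mb-Erg HG-PIN, beside 3.92, 4.62 and 4.77 in control HG-PIN, under the background gauge on all 9 arrays. The difference was 0.25 (SE 0.26, adjusted p = 0.963) for tumours against T-3Mb-Erg HG-PIN. A further probe set of Car9 with the same mean brightness differed by -0.68 in that comparison. The mean of either probe set lay under the gauge in each group, and the direction was not shared by them.

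Vegfa encodes the vascular endothelial growth factor that draws new vessels to oxygen-poor tissue. Its signal was 7.30, 5.003 and 8.89 in T-3Mb-Erg tumours, against 5.88, 5.63 and 6.02 in T-3Mb-Erg HG-PIN, beside 6.11, 5.14 and 5.59 in control HG-PIN. Tumours 1 and 3 were the highest arrays of all and tumour 2 the lowest, and the intensity on the highest array was 14.8 times that on the lowest. Vegfa averaged 7.06 ± 1.95 in tumours, 5.84 ± 0.20 in T-3Mb-Erg HG-PIN, beside 5.62 ± 0.49 in control HG-PIN (SD, n = 3 each). The difference was 1.22 (SE 0.74, 95% interval -0.41 to 2.85, adjusted p = 0.818) for tumours against T-3Mb-Erg HG-PIN and 1.45 (SE 0.74, 95% interval -0.17 to 3.06, adjusted p = 0.603) for tumours against control HG-PIN. Its SD over the 9 arrays was at percentile 98.7 of all genes tested, and most of that spread lay among the 3 tumours. Without tumour 3 the difference was 0.33 from T-3Mb-Erg HG-PIN and 0.56 from control HG-PIN, and without tumour 2 it was 2.27 from T-3Mb-Erg HG-PIN and 2.5 from control HG-PIN, where the adjusted p was 0.0346.

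Ndrg1 encodes a stress-responsive protein induced by hypoxia. Its signal was 6.25, 4.58 and 6.64 in T-3Mb-Erg tumours, against 5.13, 4.71 and 4.49 in T-3Mb-Erg HG-PIN, beside 4.51, 5.13 and 4.42 in control HG-PIN. Tumours 1 and 3 exceeded every HG-PIN array by more than 1 log2 unit, and tumour 2 lay among them. The difference was 1.05 (SE 0.46, 95% interval 0.03 to 2.06, adjusted p = 0.628) for tumours against T-3Mb-Erg HG-PIN and 1.14 (SE 0.46, 95% interval 0.13 to 2.15, adjusted p = 0.452) for tumours against control HG-PIN. A further probe set of Ndrg1 had 5.63, 3.57 and 6.64 in tumours, against 4.54, 4.73 and 2.94 in T-3Mb-Erg HG-PIN, beside 2.86, 2.63 and 3.38 in control HG-PIN. That probe set put the tumours above T-3Mb-Erg HG-PIN by 1.21 and above control HG-PIN by 2.32 on average. Ndrg1 was the gene of the 10 whose call depended most often on the setting: it passed against control HG-PIN with arrays weighted by quality (1.61, adjusted p = 0.00959), without the array of narrowest range in each group (1.98, adjusted p = 0.0146) and without tumour 2 (1.76, adjusted p = 0.0217), and against T-3Mb-Erg HG-PIN with array weights (1.44, adjusted p = 0.0399). Those settings called 5.64%, 1.56%, 1.57% and 2.43% of all genes.

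**Figure D2:**
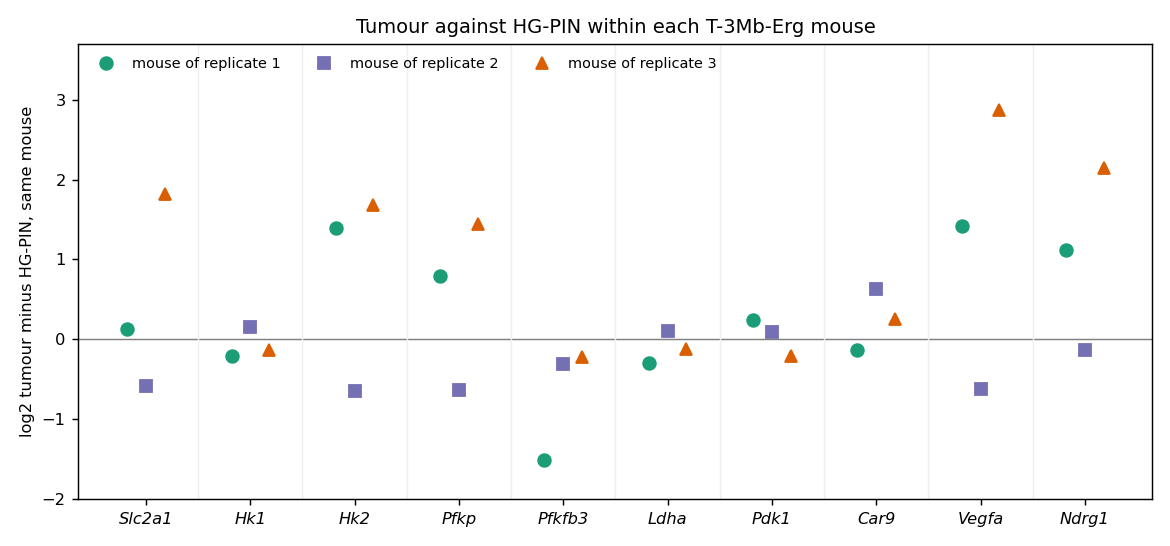
Tumour minus HG-PIN within each T-3Mb-Erg mouse (log2, vertical axis) for each of the 10 genes, with 1 symbol for each of the 3 mice and a line at 0. For Hk2, Pfkp, Vegfa and Ndrg1 the mice of replicates 1 and 3 lay well above 0 and the mouse of replicate 2 below it, and Pfkfb3 lay below 0 in each mouse.

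Within mice, the tumour of replicate 3 exceeded its own HG-PIN by 2.87 for Vegfa, 2.14 for Ndrg1, 1.83 for Slc2a1, 1.69 for Hk2 and 1.44 for Pfkp. In the mouse of replicate 1 the same genes differed by 1.42, 1.12, 0.13, 1.39 and 0.80 in that order. In the mouse of replicate 2 each of them was lower in the tumour, by -0.63, -0.13, -0.59, -0.64 and -0.64. The median over the 10 genes was 0.18, -0.22 and 0.85 in the mice of replicates 1, 2 and 3, with 6, 4 and 6 genes higher in the tumour. The medians over all genes tested were 0.0027, 0.023 and -0.079, with 50.2%, 51.9% and 44.5% of them higher in the tumour. Hk1, Ldha, Pdk1 and Car9 differed by at most 0.63 in either direction in each mouse. Without tumour 3, tumours differed from T-3Mb-Erg HG-PIN by 0.60 for Ndrg1, 0.37 for Hk2 and 0.21 for Pfkp. Over the 9 arrays, tumour 3 was the highest array for 5 of the 10 genes, tumour 2 the lowest for 3 and control HG-PIN 3 the lowest for 4.

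**Figure D3:**
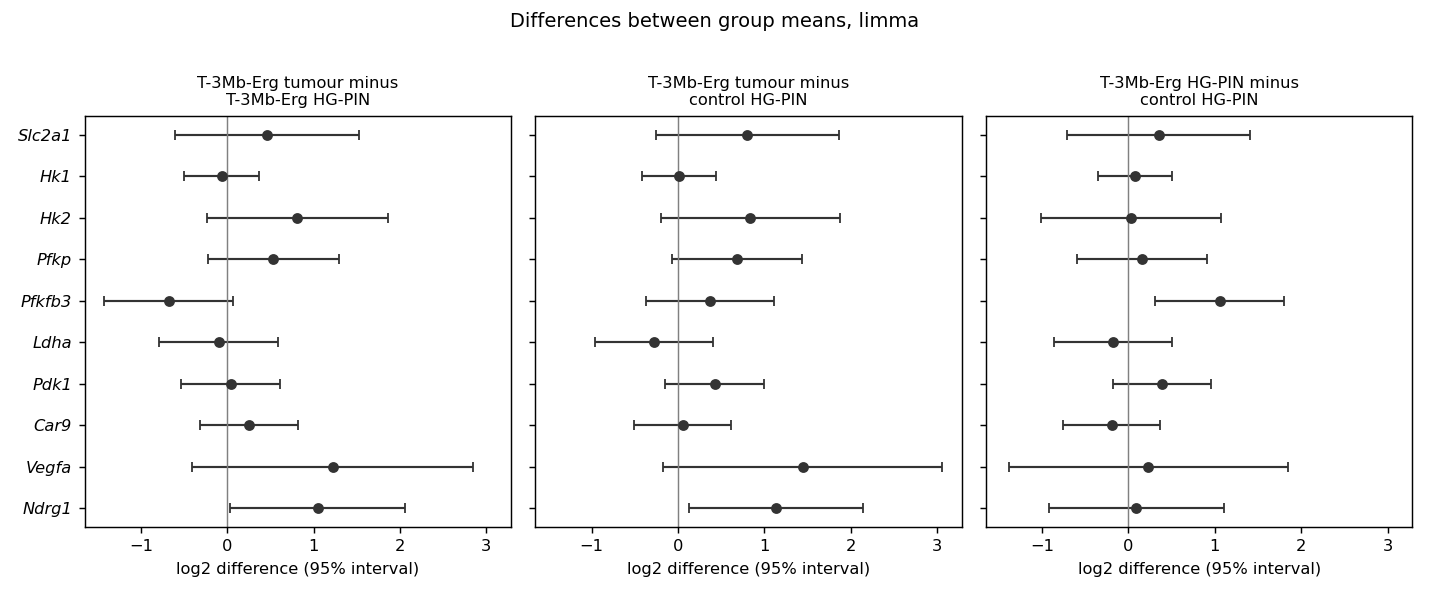
Log2 difference of group means with its 95% interval from limma for each of the 10 genes, in T-3Mb-Erg tumours minus T-3Mb-Erg HG-PIN, T-3Mb-Erg tumours minus control HG-PIN, and T-3Mb-Erg HG-PIN minus control HG-PIN. Vegfa had the widest interval in each panel, and intervals excluded 0 only for Ndrg1 with tumours and for Pfkfb3 between the HG-PIN groups, none of them past the adjusted threshold.

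Set against all genes, the tumours held 0 of the 10 genes past the adjusted threshold relative to T-3Mb-Erg HG-PIN, where limma called 47 genes (0.283% of those tested). With the mouse as a fixed block the fit called 26 genes (0.156%) and again 0 of the 10. At an unadjusted p under 0.05 there was 1 of 10 (Ndrg1), against 7.65% of all genes. The difference was above 0 for 7 of 10 genes with a median of 0.35, beside 48.9% of all genes and a median of -0.0077. Leaving out 1 array moved the median over the 10 genes to between 0.16 (without tumour 3) and 0.55 (without tumour 2), and the mean of all probe sets of a symbol gave 0.0930. In none of the 10 were the groups separate, against 11.4% of all genes. The tumours relative to control HG-PIN likewise held 0 of 10 called, where limma called 30 genes (0.18%), and 1 of 10 at an unadjusted p under 0.05 (Ndrg1 again) against 9.32% of all genes. There 9 of 10 differences were above 0 with a median of 0.56, beside 46.3% of all genes and a median of -0.029. Without tumour 3 that median over the 10 genes was 0.35 and without tumour 2 it was 0.77. None of the 10 had separate groups there, against 13.7% of all genes. T-3Mb-Erg HG-PIN relative to control HG-PIN held 0 of 10 called, where limma called 0 of all genes (0%), with 1 of 10 (Pfkfb3) at an unadjusted p under 0.05 against 4.1% of all genes. In that comparison 8 of 10 differences were above 0 with a median of 0.12, beside 49.5% of all genes and a median of -0.0036, and 1 of 10 had separate groups, against 10.1%. These comparisons share arrays, so their counts are not independent of each other.

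The precision was low for these genes. The median half-width of the 95% interval was 0.75 over the 10 genes for tumours against T-3Mb-Erg HG-PIN, beside 0.59 over all genes. A 2-fold difference in either direction lay inside the interval of 6 genes for tumours against T-3Mb-Erg HG-PIN, of 6 for tumours against control HG-PIN, and of 5 for T-3Mb-Erg HG-PIN against control HG-PIN. With 3 arrays a group, a missed threshold does not show that these genes had equal signal.

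The wider hypoxia pathway was read from lists of related genes. Over all genes tested, 7.65%, 9.32% and 4.1% had an unadjusted limma p under 0.05. That is for tumours against T-3Mb-Erg HG-PIN, tumours against control HG-PIN, and T-3Mb-Erg HG-PIN against control HG-PIN. In the same order, 48.9%, 46.3% and 49.5% of all differences were above 0. These shares serve for each list below. Among 19 other hypoxia targets, none passed in tumours against T-3Mb-Erg HG-PIN, 15 differences were above 0, the median was 0.44 and 6 had an unadjusted limma p under 0.05. Against control HG-PIN none passed, 17 were above 0, the median was 0.73 and 8 had such a p, and for T-3Mb-Erg HG-PIN against control HG-PIN none passed, 16 were above 0 with a median of 0.11, and 0 had such a p. Plod2, a lysyl hydroxylase that readies collagen for cross-linking, had 5.89, 3.90 and 7.13 in T-3Mb-Erg tumours, against 3.54, 2.92 and 2.86 in T-3Mb-Erg HG-PIN, beside 2.90, 2.87 and 2.68 in control HG-PIN. Each tumour was above each HG-PIN array, but all 6 HG-PIN arrays and tumour 2 lay under the gauge, so the size of the difference is read against signal at background level. Plod2 differed by 2.53 (SE 0.60, adjusted p = 0.142) from T-3Mb-Erg HG-PIN and by 2.83 (SE 0.59, adjusted p = 0.0862) from control HG-PIN. Without tumour 2 both passed, at 3.42 (adjusted p = 0.00191) and 3.71 (adjusted p = 0.000414). Over the fits that left out 1 array each, these differences were 1.75 to 3.42 and 2.04 to 3.71. Both also passed with array weights, with array range added to the fit and without the array of narrowest range in each group. Without tumour 2, 110 of all genes passed against T-3Mb-Erg HG-PIN and 261 against control HG-PIN, beside 47 and 30 with all arrays. With array range in the fit 194 and 196 passed, in the same order. Array weights gave 405 and 938, and leaving out the arrays of narrowest range gave 182 and 260. Plod1, a relative of Plod2, differed by 1.09 (SE 0.29, adjusted p = 0.213) between tumours and T-3Mb-Erg HG-PIN. Plod1 lay under the gauge on every array except tumour 3. Adm, the vessel-dilating peptide adrenomedullin, had 4.48, 4.08 and 4.59 in tumours, against 3.63, 3.52 and 4.27 in T-3Mb-Erg HG-PIN, beside 3.49, 3.23 and 3.11 in control HG-PIN, under the gauge throughout. Tumours and control HG-PIN did not overlap for Adm, and the difference was 1.11 (SE 0.24, adjusted p = 0.105). It was 1.29 (adjusted p = 0.0403) without tumour 2, and it ranged from 1.02 to 1.29 when 1 array was left out. Mxi1, a partner of MAX that opposes MYC, differed by 1.18 (SE 0.68, adjusted p = 0.998) between T-3Mb-Erg HG-PIN and control HG-PIN.

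Of 9 genes of the oxygen-sensing pathway none passed in any comparison, and 6, 7 and 5 differences were above 0 for tumours against T-3Mb-Erg HG-PIN, tumours against control HG-PIN, and T-3Mb-Erg HG-PIN against control HG-PIN, with medians of 0.16, 0.40 and 0.23. At an unadjusted limma p under 0.05 there were 2, 1 and 1. Epas1, which encodes HIF-2alpha and is abundant in endothelium, had 6.56, 5.31 and 7.45 in T-3Mb-Erg tumours, against 4.61, 4.59 and 4.89 in T-3Mb-Erg HG-PIN, beside 4.95, 4.75 and 4.63 in control HG-PIN. The tumours did not overlap either HG-PIN group, but T-3Mb-Erg HG-PIN 1 and 2 and control HG-PIN 2 and 3 lay under the gauge. Epas1 differed by 1.74 (SE 0.44, adjusted p = 0.191) from T-3Mb-Erg HG-PIN and by 1.66 (SE 0.44, adjusted p = 0.165) from control HG-PIN. Without tumour 2 both differences passed, at 2.32 (adjusted p = 0.0147) and 2.24 (adjusted p = 0.00742). Both also passed with array weights and without the array of narrowest range in each group. With 1 array left out, whichever it was, they were 1.27 to 2.32 and 1.19 to 2.24. Hif1a, which encodes HIF-1alpha and was named after its values were seen, had 6.34, 4.74 and 7.40 in tumours, against 5.93, 5.06 and 4.93 in T-3Mb-Erg HG-PIN, beside 5.39, 4.42 and 5.34 in control HG-PIN (adjusted p = 0.864 and 0.611 for tumours against each in turn). Tumour 2 was again the lowest tumour. Egln3, a prolyl hydroxylase that marks these factors for degradation and is itself induced by hypoxia, differed by -1.32 (SE 0.57, adjusted p = 0.596) between tumours and T-3Mb-Erg HG-PIN and by 1.08 (SE 0.56, adjusted p = 0.998) between T-3Mb-Erg HG-PIN and control HG-PIN. Vhl, part of the ligase that degrades them, differed by 0.49 (SE 0.21, adjusted p = 0.998) between T-3Mb-Erg HG-PIN and control HG-PIN, and Arnt, their shared partner, by 0.75 (SE 0.38, adjusted p = 0.606) between tumours and control HG-PIN. The Vhl signal lay under the gauge on every array. Egln3 lay under it in tumours 1 and 2, T-3Mb-Erg HG-PIN 2 and control HG-PIN 2 and 3. Arnt lay under it in T-3Mb-Erg HG-PIN 2 and 3 and control HG-PIN 1 and 2.

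The remaining steps of sugar metabolism held no gene past the adjusted threshold. In other settings 3 of the genes named below passed it, and only the genes of lowest p in each list and comparison were followed there. Array weights called 2.43% of all genes for tumours against T-3Mb-Erg HG-PIN and 5.64% for tumours against control HG-PIN. Leaving out tumour 2 called 1.57% for tumours against control HG-PIN. Of 20 other glycolysis and transport genes 0 passed in limma in any comparison, and 11, 14 and 12 differences were above 0 for tumours against T-3Mb-Erg HG-PIN, tumours against control HG-PIN, and T-3Mb-Erg HG-PIN against control HG-PIN, with medians of 0.03, 0.22 and 0.06 and with 6, 3 and 1 at an unadjusted p under 0.05. Slc2a3, the glucose transporter GLUT3, differed by 0.80 (SE 0.24, adjusted p = 0.305) and Slc16a1, the lactate carrier MCT1, by 0.75 (SE 0.22, adjusted p = 0.305) between tumours and T-3Mb-Erg HG-PIN. Slc16a7, the carrier MCT2, differed by -0.996 (SE 0.29, adjusted p = 0.230) between tumours and control HG-PIN. The signals of these 3 carriers lay under the background gauge on every array. With array weights Slc2a3 passed against T-3Mb-Erg HG-PIN (0.85, adjusted p = 0.0388) and against control HG-PIN (0.90, adjusted p = 0.0125). Without tumour 2 it passed against control HG-PIN (1.02, adjusted p = 0.0430). Slc2a3 differed by 0.57 to 1.02 in each tumour comparison when 1 array was left out. Slc16a7 passed against control HG-PIN with array weights (-1.35, adjusted p = 0.00714). Slc2a4, the insulin-responsive transporter GLUT4, and Slc16a3, the lactate exporter MCT4, differed by 0.48 and 0.41 between T-3Mb-Erg HG-PIN and control HG-PIN (adjusted p = 0.998 each). Both lay under the gauge on every array. Of 19 genes of pyruvate oxidation and the TCA cycle 0 passed and 0 had an unadjusted limma p under 0.05 in any comparison, and their medians were 0.03 for tumours against T-3Mb-Erg HG-PIN, 0.19 for tumours against control HG-PIN and 0.18 for T-3Mb-Erg HG-PIN against control HG-PIN. In tumours against T-3Mb-Erg HG-PIN the lowest p were those of Sdhb, a subunit of succinate dehydrogenase, at -0.52 (SE 0.31, adjusted p = 0.817) and Pdha1, a subunit of pyruvate dehydrogenase, at -0.45 (SE 0.29, adjusted p = 0.845). Of 12 regulators such as Akt2, Rptor and Rheb 0 passed, with medians of -0.05, 0.04 and 0.05 in the same order of comparisons and with 0, 1 and 0 at an unadjusted limma p under 0.05. Rheb, the GTPase that switches on mTORC1, differed by 0.69 (SE 0.28, adjusted p = 0.443) between tumours and control HG-PIN. With array weights it differed by 0.84 (adjusted p = 0.0383). Rheb lay above the gauge only in tumours 1 and 3.

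Relatives of Vegfa and of Car9 gave one called gene. Among 7 VEGF ligands and receptors 0 passed in limma in any comparison, with 1, 2 and 0 at an unadjusted p under 0.05 and medians of 0.17, 0.13 and 0.17 for tumours against T-3Mb-Erg HG-PIN, tumours against control HG-PIN, and T-3Mb-Erg HG-PIN against control HG-PIN. Flt1, the VEGF receptor 1 of endothelial cells, differed by 0.70 (SE 0.31, adjusted p = 0.645) between tumours and T-3Mb-Erg HG-PIN and by 0.99 (SE 0.31, adjusted p = 0.280) between tumours and control HG-PIN. The difference from control HG-PIN passed with array weights (1.06, adjusted p = 0.0234) and without tumour 2 (1.35, adjusted p = 0.0338). That difference was 0.70 to 1.35 over the fits with 1 array left out. Flt1 lay under the background gauge on every array except tumour 3. Of 7 other carbonic anhydrases and NDRG relatives, Car2 was called lower in tumours in both tumour comparisons and 0 were called between the HG-PIN groups. In this list 3, 3 and 2 genes had an unadjusted limma p under 0.05, with medians of 0.15, -0.0048 and 0.13. That is for tumours against T-3Mb-Erg HG-PIN, tumours against control HG-PIN, and T-3Mb-Erg HG-PIN against control HG-PIN. Car2, the cytosolic carbonic anhydrase 2, had 3.88, 3.44 and 3.30 in T-3Mb-Erg tumours, against 7.5, 6.03 and 7.25 in T-3Mb-Erg HG-PIN, beside 5.71, 6.09 and 5.74 in control HG-PIN. Every tumour was under the gauge and every HG-PIN array above it. Car2 fell by 3.39 (SE 0.38, adjusted p = 0.00436) in tumours relative to T-3Mb-Erg HG-PIN and fell by 2.31 (SE 0.38, adjusted p = 0.0389) relative to control HG-PIN. The call against T-3Mb-Erg HG-PIN was lost without tumour 1 (-3.61, adjusted p = 0.0676), where 0 of all genes were called. The call against control HG-PIN was lost without any 1 of tumours 1 and 3, T-3Mb-Erg HG-PIN 3 and the 3 control arrays, with an adjusted p of 0.0544 to 0.168 and differences of -2.14 to -2.53. With these arrays left out 0 to 7 of all genes were called, except 88 without control HG-PIN 2. The Car2 call was also lost on log2(value + 16) (-1.41, adjusted p = 0.134), where 7 of all genes were called. It was lost too without the array of narrowest range in each group (-2.13, adjusted p = 0.0608), where 260 were called. Between T-3Mb-Erg HG-PIN and control HG-PIN, Car2 differed by 1.08 (SE 0.38) and Car13 by 0.94 (SE 0.31), with an adjusted p of 0.998 each.

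**Figure D4:**
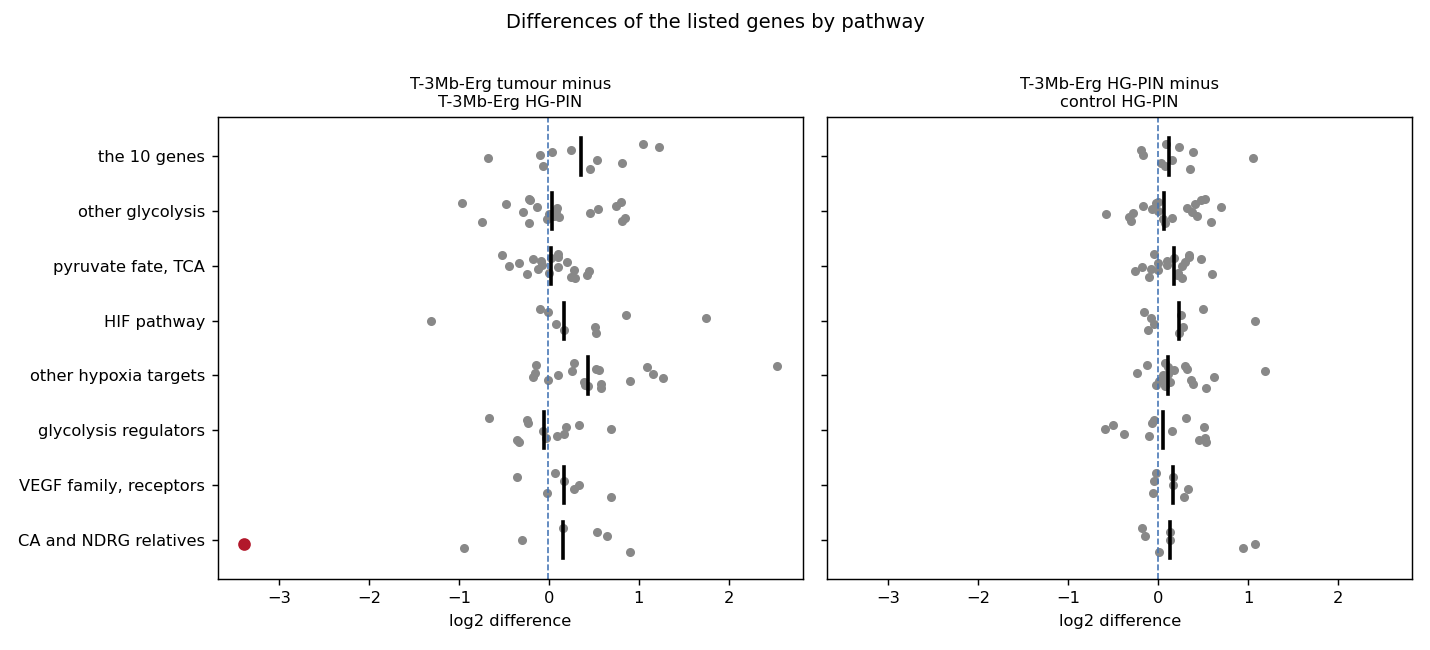
Log2 difference (horizontal axis) of each gene tested in the 10 glycolysis and hypoxia genes and in related lists, in T-3Mb-Erg tumours minus T-3Mb-Erg HG-PIN (left) and T-3Mb-Erg HG-PIN minus control HG-PIN (right), with a black bar at each list's median, a dashed line at the median of all genes and called genes in red. Car2 at -3.39 is the one called gene, and the medians of the 10 genes (0.35) and of the other hypoxia targets (0.44) lay to the right in the left panel.

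The captured lesions also differed in the cell types they showed, and these markers moved with several of the genes above. The summed intensity of 10 luminal epithelial markers was 406, 262 and 375.8 in T-3Mb-Erg tumours, against 1792, 1352 and 1388 in T-3Mb-Erg HG-PIN, beside 1434, 548 and 1357 in control HG-PIN. In tumours against T-3Mb-Erg HG-PIN 7 of these 10 markers were called lower with a median of -2.68, against 0.283% of all genes called. Krt8 (adjusted p = 0.0154) and Epcam (adjusted p = 0.0430) were among them. In tumours against control HG-PIN 2 of the 10 were called lower with a median of -2.24, against 0.18% of all genes called. The mean of the group was above the background gauge for 3 of the 10 in tumours, against 10 of 10 in T-3Mb-Erg HG-PIN, beside 10 of 10 in control HG-PIN, so most defining markers of the captured epithelium were near background in the tumours. Krt8 itself had 4.71, 5.59 and 4.86 in tumours, against 8.26, 7.68 and 7.88 in T-3Mb-Erg HG-PIN, beside 7.25, 6.75 and 7.63 in control HG-PIN, and Krt18 averaged 6.84 ± 0.996, 8.19 ± 0.41 and 7.46 ± 0.96 in those groups (SD, n = 3 each). The 9 fibroblast markers summed to 1515, 460 and 3468 in tumours, against 477, 643 and 229 in T-3Mb-Erg HG-PIN, beside 206, 168 and 208 in control HG-PIN, with 7, 5 and 2 of the 9 above the gauge in those groups. The 10 endothelial markers, which include the VEGF receptor Flt1, summed to 197, 169 and 423 in tumours, against 141, 162 and 153 in T-3Mb-Erg HG-PIN, beside 117, 147 and 120 in control HG-PIN, with 2, 1 and 0 of the 10 above the gauge.

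Tumour 3 was thus highest and tumour 2 lowest among the tumours for fibroblast and endothelial markers and for the range of the array. This is also the order of Slc2a1, Hk2, Pfkp, Vegfa, Ndrg1, Epas1 and Plod2. Smooth muscle and seminal vesicle markers had this order too. Among the tumours, luminal and basal markers were likewise lowest in tumour 2, and macrophage, adipocyte and neutrophil markers highest in tumour 3. Skeletal muscle, prostate secretory and T and B cell markers were highest in tumour 2. None of the fibroblast or endothelial markers was called in either tumour comparison, and the part of cell makeup in these genes was not tested. With array range added to the fit, tumours differed from T-3Mb-Erg HG-PIN by 1.13 for Vegfa, 1.004 for Ndrg1 and 0.39 for Slc2a1. The 8 smooth muscle markers summed to 233, 199 and 683 in tumours, against 1409, 362 and 270 in T-3Mb-Erg HG-PIN, beside 229, 214 and 294 in control HG-PIN, so they were highest in T-3Mb-Erg HG-PIN 1, the array that also had the highest Pfkfb3. The 6 seminal vesicle genes, products of a neighbouring gland, summed to 44.0, 40.9 and 625 in tumours, against 6439, 2616 and 509 in T-3Mb-Erg HG-PIN, beside 942, 2737 and 77.6 in control HG-PIN, and the 5 basal epithelial markers summed to 205, 152 and 183 in tumours, against 665, 578 and 606 in T-3Mb-Erg HG-PIN, beside 277, 169 and 223 in control HG-PIN. Both sums were likewise highest in T-3Mb-Erg HG-PIN 1, as were those of the luminal and skeletal muscle markers. The range of that array (6.61) was exceeded only by tumour 3 (6.65). The part of these lists and of array range in Pfkfb3 was not tested. The 8 macrophage markers summed to 164, 176 and 368 in tumours, against 255, 187 and 215 in T-3Mb-Erg HG-PIN, beside 186, 156 and 153 in control HG-PIN. The 8 skeletal muscle markers summed to 109, 150 and 105.5 in tumours, against 191, 116 and 121 in T-3Mb-Erg HG-PIN, beside 119, 144 and 109.6 in control HG-PIN, with 0, 2 and 0 of the 8 above the gauge in those groups. In captured tissue, fewer cells of a type and less RNA per cell cannot be told apart.

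**Figure D5:**
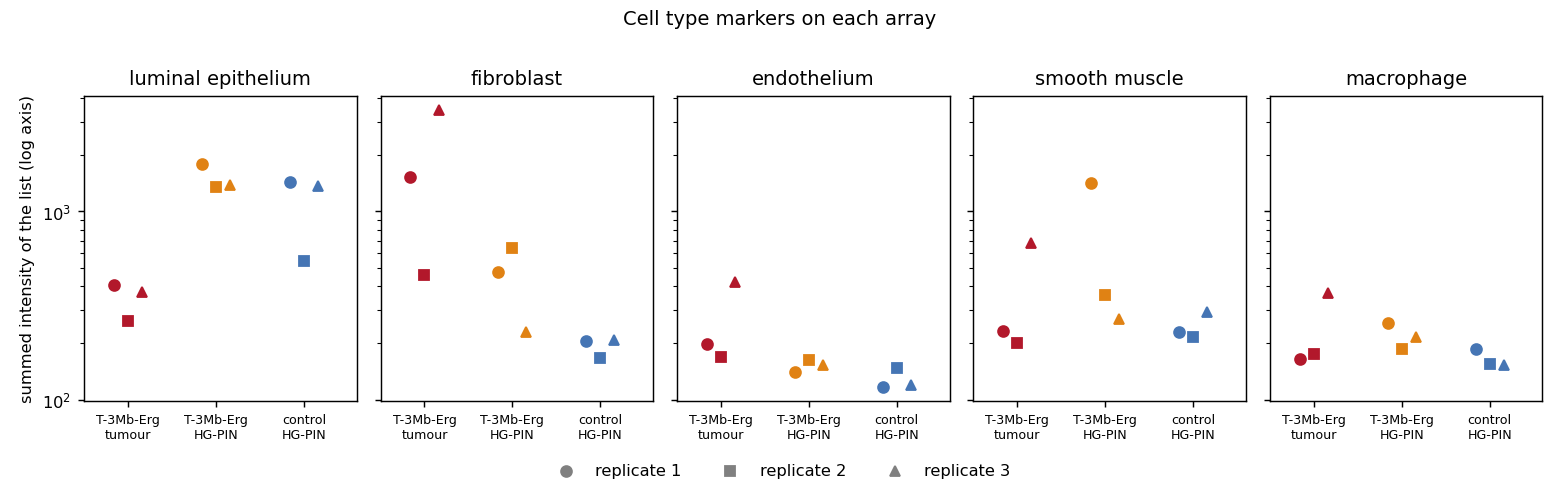
Summed intensity (log axis) of marker genes of 5 cell types on each array in T-3Mb-Erg tumours, T-3Mb-Erg HG-PIN and control HG-PIN, with symbols for replicates 1, 2 and 3. Luminal markers lay between 262 and 406 in tumours, against 1352 to 1792 in T-3Mb-Erg HG-PIN, and fibroblast markers reached 3468 in tumour 3.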

How the data were processed

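Microdissected, formalin-fixed prostate lesions gave RNA that was amplified with the NuGEN Ovation V2 system and hybridised to 1 array per capture, per the labels' protocols. The deposited values were intensity values on a linear scale, from 1.36 to 13922 over 41345 probe sets, with array medians of 13.6 to 15.4. How the authors normalized them, and with which software, is likewise not given in the sources used here. Fixed, amplified RNA can lower signal and widen the spread between arrays.

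Groups came from genotype, lesion and mouse in the titles. Probe sets were named from the platform annotation, updated through Entrez identifiers: 23521 had 1 symbol (23328 with a matching identifier), 1814 several and 16010 none. One engineered allele that both genotypes shared is not reported here. Intensities were set to at least 1 and log2-transformed, and the dimmest 25% of genes by mean (under 3.25) were removed. Group means were fitted over all 9 arrays with limma 3.58.1 in R 4.3.3, with the mouse as a random block and trended empirical Bayes variances, and calls required a Benjamini-Hochberg adjusted p under 0.05 over 16635 genes. The pipeline was tested on simulated data.

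Tumour and HG-PIN of T-3Mb-Erg replicates 1, 2 and 3 came from the same mice, by the mouse names in the titles. Their deviations from the group means correlated at 0.17, 0.10 and -0.30, and the consensus correlation was -0.01. The 10 genes and all lists were chosen with earlier results of these data known. From each related list the text names called genes, up to 4 by lowest p, and otherwise some of the 2 with the lowest p in a comparison. The number of arrays, 3 a group, limits the precision. Alternatives changed the normalization, pseudocount, filter, probe set choice, block, array weights, range term and arrays included.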

Additional observations from a re-analysis of the deposited data

How the results depend on the processing

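Over 20 alternative settings, of which 9 left out 1 array each, the 10 genes gave 580 differences. The direction and the side of the threshold were kept in 547 of these, 28 turned direction and 5 passed the threshold. The genes called numbered 1 with array weights in both tumour comparisons and 1 without the array of narrowest range in each group for tumours against control HG-PIN, and leaving out 1 array gave 0 to 2 there. The median over the 10 genes for T-3Mb-Erg HG-PIN against control HG-PIN lay between -0.0033 and 0.33 when 1 array was left out, with the highest value without T-3Mb-Erg HG-PIN 3. With mouse as a fixed replicate block 0 of the 10 genes were called in tumours against T-3Mb-Erg HG-PIN and 26 of all genes, against 47 with the random block, and without a block 0 and 49. Calls over all genes ranged from 0 to 405 for tumours against T-3Mb-Erg HG-PIN, from 0 to 938 for tumours against control HG-PIN and from 0 to 9 for T-3Mb-Erg HG-PIN against control HG-PIN, each highest with array weights.

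Small differences turned, and the cause was not tested. The mean of all probe sets gave Car9 -0.22 for tumours against T-3Mb-Erg HG-PIN, -0.10 for tumours against control HG-PIN and 0.12 for T-3Mb-Erg HG-PIN against control HG-PIN, and Pdk1 -0.14 for tumours against T-3Mb-Erg HG-PIN. Array weights gave Hk1 -0.10 for tumours against control HG-PIN. The range term gave Hk2 -0.0674 for T-3Mb-Erg HG-PIN against control HG-PIN. Without the narrowest-range arrays, fitted with no block because no mouse correlation could be estimated, Ldha was 0.14 for tumours against T-3Mb-Erg HG-PIN and 0.0249 for tumours against control HG-PIN, Hk1 was -0.0914 for tumours against control HG-PIN, and Hk2 and Vegfa were -0.10 each for T-3Mb-Erg HG-PIN against control HG-PIN. Leaving out 1 array gave, for tumours against T-3Mb-Erg HG-PIN, Slc2a1 -0.16 to 1.05, Hk1 -0.17 to 0.0317, Ldha -0.28 to 0.0316 and Pdk1 -0.12 to 0.16. For tumours against control HG-PIN it gave Hk1 -0.0941 to 0.11 and Car9 -0.20 to 0.22. For T-3Mb-Erg HG-PIN against control HG-PIN it gave Hk2 -0.10 to 0.22, Pfkp -0.0483 to 0.42, Ldha -0.44 to 0.0683, Vegfa -0.0123 to 0.56 and Ndrg1 -0.12 to 0.36. The number of arrays and signals near background limit all of these differences.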

Other observations

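Marker lists of cell types whose sums are not given above also differed between arrays. Summed intensity of 7 prostate secretory products was 89.7, 103 and 79.0 in T-3Mb-Erg tumours, against 809, 144 and 813 in T-3Mb-Erg HG-PIN, beside 3985, 188 and 4800 in control HG-PIN (adjusted p of the lowest member 0.242 and 0.0859 for tumours against each in turn). Tumour 3 was the highest tumour for the 5 adipocyte markers (90.8, 96.3 and 591 in tumours) and for the 6 neutrophil markers (107, 151 and 412), against at most 106 and 332 for these lists in T-3Mb-Erg HG-PIN, beside 83.0 and 176 in control HG-PIN. The 7 T and B cell markers lay between 74.2 and 118 on all arrays, with 0 above the background gauge.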
